A study of Mus musculus with 8 samples.

Results

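The effect of microglial Il6 deficiency on the uninjured cortex was read from 8 of the 16 mice of the series, namely the 4 floxed controls and the 4 controls deficient in microglia-derived Il6. These animals were chosen by the sample type given in the labels and not by any measured value. Total RNA came from the right fronto-parietal cortex, and each 2-colour Agilent array held RNA of 2 different mice, 1 labelled with Cy5 and 1 with Cy3. The 8 control mice lay on 6 of the 8 arrays. The other 8 mice were 4 floxed and 4 Il6-deficient animals after a cryolesion, in which a spot of cortex is injured by freezing. The floxed gene, the driver of the deletion, the deleted part of Il6, and the strain, age and sex of the mice are not given in the sources used here. Cre drivers inserted into the Cx3cr1 gene are in wide use for microglia, but whether the deficient mice carry such an allele was not tested.

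Interleukin-6 is a secreted cytokine that binds its receptor Il6ra and the shared signalling subunit Il6st (gp130), which activates JAK kinases and the transcription factor STAT3. STAT3 in turn induces its own inhibitor Socs3. Microglia, the resident macrophages of the brain, can make interleukin-6 when activated, and in healthy tissue they are marked by genes such as Cx3cr1, P2ry12, Tmem119 and the complement C1q genes. In RNA of whole cortex, fewer cells of a type and less RNA per cell cannot be told apart.

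Both control groups met directly on 2 dye-swapped arrays. On direct array 1 deficient control 1 (Cy5) was set against floxed control 1 (Cy3), and on direct array 2 floxed control 2 (Cy5) against deficient control 2 (Cy3). Deficient controls 3 and 4 were hybridised beside floxed cryolesioned mice, and floxed controls 3 and 4 beside deficient cryolesioned mice. The loop fit joined both kinds of evidence with a dye intercept: the direct arrays had a weight of 0.75 in the difference, and the indirect path through the cryolesioned groups a weight of 0.25. Differences below are on the log2 scale, deficient minus floxed, with their standard error (SE). Levels are log2 channel intensities of single animals, listed for animals 1 to 4, and their differences need not equal those of the fit.

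In the 16 channels 59.2% to 65.9% of the probes exceeded background clearly, and the number of arrays limits the precision. Floxed control 2 stood furthest from the other controls, with a median correlation of 0.9906 over all tested features. The microglia, interferon, antigen presentation, excitatory neuron and clock lists are therefore also given without direct array 2, which held this animal. Other lists, some of which also lean on that array, are not given without it. Genes past an unadjusted p under 0.05 whose direct arrays differ in sign are given with both arrays. Xist, the transcript of the inactive X chromosome, was above background in 3 of 4 floxed and 1 of 4 deficient controls, and Y-linked transcripts in the remaining controls (1 floxed and 3 deficient). Sex was therefore unequal between the groups, and it was opposite within both direct arrays. Floxed controls 3 and 4 both had Xist above background, while deficient controls 3 and 4 and all cryolesioned mice had Y-linked transcripts. Along the indirect path taken alone, sex and genotype of the controls therefore cannot be told apart. The Y-linked Eif2s3y differed by 2.98 along that path, against a mean of 0.086 on the direct arrays. Lcn2, which encodes an acute-phase protein strongly induced by brain injury, averaged 8.63 in the 4 controls hybridised beside a cryolesioned mouse and 6.70 in the other 4. The part of sex and of the array partner in the gene groups below was not tested, except where a value with sex in the fit or within each partner is given.

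No gene passed the loop fit after correction over all features. Of 29362 features tested with limma, 0 (0%) had a Benjamini-Hochberg adjusted p under 0.05, and the smallest adjusted p was 0.534. At an unadjusted p under 0.05, 829 features (2.82%) were higher in the deficient controls and 470 (1.60%) were lower. All 4 deficient controls lay above all 4 floxed controls for 590 features (2.01%) and below them for 639 features (2.18%). The median difference over all features was 0.012. A fit of the separate channels, which also uses the levels across arrays, called 1 of 29358 features (0.00341%). That feature was Cx3cr1, the fractalkine receptor of microglia, which was lower in the deficient controls. Without direct array 2 the loop fit called 3 features, among them the sex-linked Eif2s3y and Xist.

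**Figure D1:**
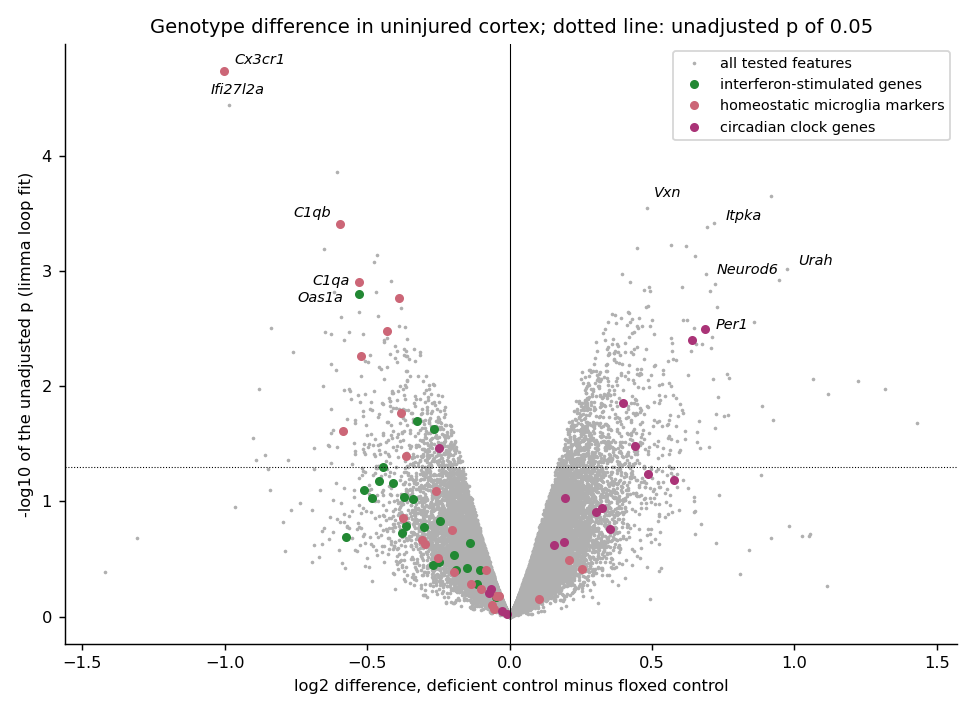
Log2 difference between deficient and floxed controls (x axis) against -log10 of the unadjusted limma p (y axis) for each of 29362 features, with homeostatic microglia markers, interferon-stimulated genes and circadian clock genes in colour. Cx3cr1 has the smallest p at -1.003 and Ifi27l2a lies beside it at -0.99, while the interferon-stimulated genes all lie left of 0 (22 of 24 with median centring).

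Il6 itself, the targeted gene, was below detection in uninjured cortex. It was read by 2 probes, and neither was well above background in any of the 8 controls. The brighter probe read 5.86, 5.93, 6.003 and 5.89 in the floxed and 5.86, 5.99, 5.96 and 5.78 in the deficient controls. These values overlap (deficient control 4 was the lowest) and lie at the floor of the array, so no fold is given and the deletion cannot be checked from the controls. The group means were 5.92 ± 0.063 and 5.90 ± 0.097 (SD, n = 4 each), with a two-sided exact permutation p of 0.714. Whether either probe lies within the deleted stretch was not tested.

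Cx3cr1 was the gene that separated the genotypes most clearly. Its log2 levels were 11.77, 12.07, 12.15 and 11.82 in the floxed controls. In the deficient controls they were 11.01, 10.68, 10.84 and 11.05. The lowest floxed animal thus lay above the highest deficient animal by more than the range within either group. The mean level was 11.95 ± 0.19 in the floxed and 10.90 ± 0.17 in the deficient controls (SD, n = 4 each), and the two-sided exact permutation p was 0.0286, the smallest that 4 against 4 animals can give. The fitted difference was -1.003 ± 0.097, a 0.499-fold level with a 95% interval of 0.425 to 0.585, at an unadjusted limma p of 1.85e-05 and an adjusted p of 0.534.

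The Cx3cr1 difference had the same direction along every route through the loop. It was -0.75 and -1.39 on direct arrays 1 and 2 and -0.80 along the indirect path. The levels differed by -1.04 among the 4 controls hybridised beside cryolesioned mice and by -1.07 among the 4 hybridised beside each other. Without direct array 2 the fitted difference was -0.91 ± 0.12, and with sex in the fit it was -1.03 ± 0.095. The separate-channel fit gave -1.05 ± 0.069 at an adjusted p of 9.55e-06. Over the 25 fits it ran from -1.08 to -0.87 and was below 0 in 25 of them, and the adjusted p passed 0.05 in 1. These fits reuse the same arrays and are not independent of each other.

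A second, dimmer Cx3cr1 probe gave the same separation. It read 8.995, 9.57, 8.95 and 8.99 in the floxed and 8.26, 8.20, 8.33 and 8.32 in the deficient controls, again without overlap, and its fitted difference was -1.02. The 24 tested genes among the 40 nearest named neighbours of Cx3cr1 on its chromosome included 0 with an unadjusted limma p under 0.05 (against 2.82% higher and 1.60% lower over all features), and their median difference was -0.033.

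**Figure D2:**
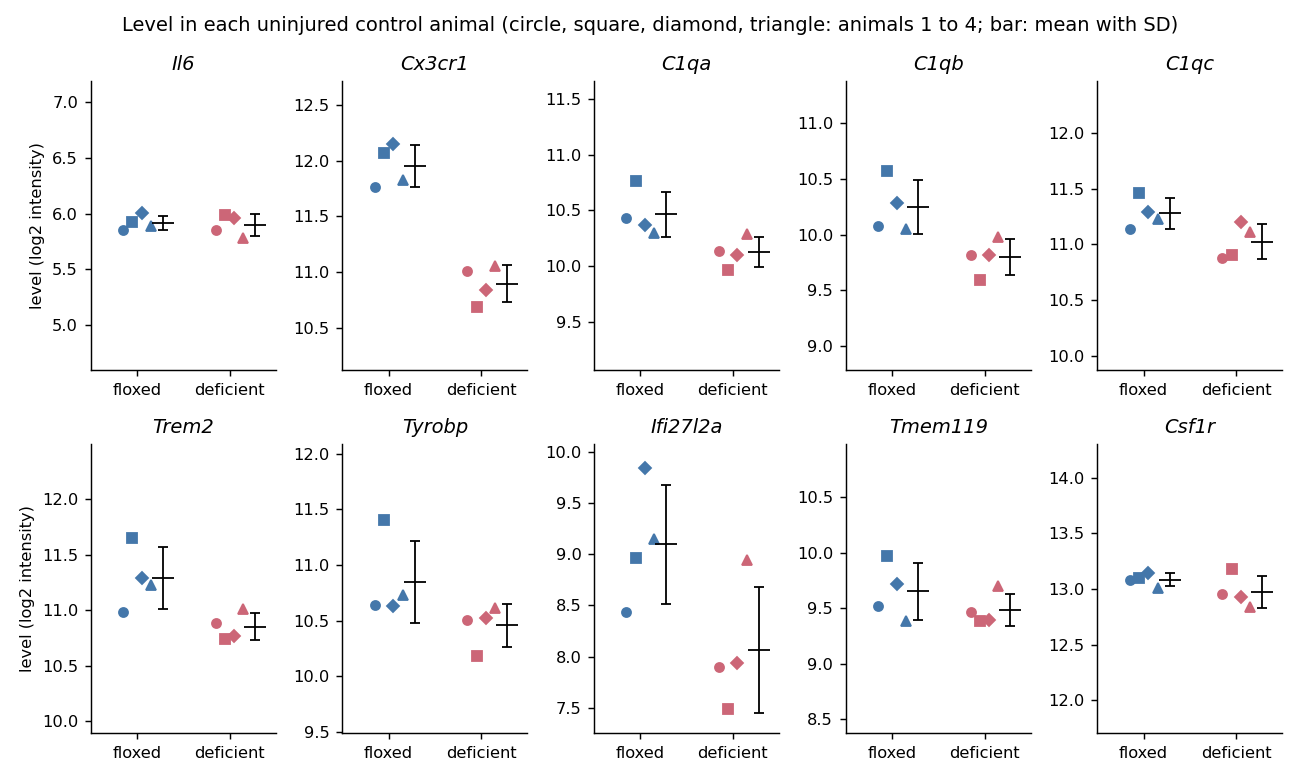
Log2 level of Il6 and 9 microglial or interferon-related genes in each control animal (symbols mark animals 1 to 4, the bar is the mean with SD, n = 4 per group; each panel has its own y range). The groups are apart for Cx3cr1, C1qa, C1qb and Tyrobp, overlap for Csf1r, Tmem119 and the other genes, and Il6 stays near 5.9 in both groups.

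The other homeostatic microglia markers leaned lower, by less than Cx3cr1 and unequally. Of 26 tested markers, 23 were below 0, and the list's median was -0.25 against 0.012 over all features. At an unadjusted p under 0.05, 9 of 26 were lower and 0 higher, where 1.60% of all features were lower. For 8 of 26 all deficient animals lay below all floxed animals, where this held for 2.18% of features. The markers past the unadjusted threshold were Cx3cr1, C1qa, C1qb, C1qc, Fcrls, Trem2, Tyrobp, Irf8 and Mertk, and none of them passed after adjustment.

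C1qa, C1qb and C1qc encode the chains of C1q, the protein that starts the classical complement pathway. C1qb read 10.07, 10.57, 10.28 and 10.05 in the floxed and 9.81, 9.59, 9.81 and 9.98 in the deficient controls. The groups did not overlap, the fitted difference was -0.59 ± 0.093 (95% interval -0.81 to -0.37), and the direct arrays gave -0.26 and -0.99. C1qa read 10.43, 10.76, 10.37 and 10.29 in the floxed and 10.14, 9.97, 10.10 and 10.29 in the deficient controls, with a fitted difference of -0.53 ± 0.10; the lowest floxed and the highest deficient animal, both number 4, nearly touched. C1qc read 11.13, 11.46, 11.29 and 11.23 in the floxed and 10.88, 10.91, 11.20 and 11.11 in the deficient controls; deficient controls 3 and 4 came within the floxed range or just below it, and the difference was -0.43 ± 0.098. Among controls hybridised beside each other, the level of C1qb differed by -0.62, and among those beside cryolesioned mice by -0.27.

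Trem2, a lipid-sensing receptor of microglia, and Tyrobp, its signalling adaptor, also leaned lower. Trem2 read 10.98, 11.65, 11.29 and 11.23 in the floxed and 10.89, 10.74, 10.77 and 11.01 in the deficient controls, with a difference of -0.52 ± 0.13, -0.096 and -0.91 on direct arrays 1 and 2, and -0.33 ± 0.14 without direct array 2. Tyrobp read 10.64, 11.40, 10.63 and 10.73 in the floxed and 10.51, 10.18, 10.52 and 10.61 in the deficient controls, with a difference of -0.59 ± 0.21. For Tyrobp the groups did not overlap, but floxed control 2 at 11.40 stood well above the other floxed animals, and its array carried most of the difference, with -0.13 and -1.22 on direct arrays 1 and 2 and -0.16 ± 0.12 without array 2. Fcrls, a Fc receptor-like microglial gene, differed by -0.39 ± 0.079, Irf8, a transcription factor of the myeloid lineage, by -0.38 ± 0.12, and Mertk, a receptor for apoptotic cells, by -0.37 ± 0.15. Direct array 1 showed no lowering of Irf8 or Mertk: the direct arrays gave 0.020 and -0.73 for Irf8 and 0.048 and -0.86 for Mertk, and without array 2 the fits gave -0.24 ± 0.14 and -0.18 ± 0.17.

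Several defining microglia markers showed little or no difference in the fit, where for P2ry12 and Tmem119 the direct and indirect routes opposed each other. P2ry12, the purinergic receptor that steers microglial processes, read 8.97, 9.49, 8.82 and 8.77 in the floxed and 8.93, 8.65, 8.87 and 9.05 in the deficient controls, and its difference was -0.055 ± 0.31 (95% interval -0.80 to 0.69). The direct arrays gave -0.049 and -0.84 for P2ry12, against 1.11 along the indirect path. Tmem119 read 9.52, 9.97, 9.72 and 9.38 in the floxed and 9.47, 9.39, 9.40 and 9.70 in the deficient controls, with -0.099 ± 0.17 (95% interval -0.50 to 0.30). For Tmem119 the direct arrays gave -0.055 and -0.59, and the indirect path 0.57. Csf1r, the receptor for the growth factor on which microglia depend, read 13.08, 13.10, 13.14 and 13.01 in the floxed and 12.96, 13.18, 12.93 and 12.83 in the deficient controls, with -0.083 ± 0.091 (95% interval -0.30 to 0.13). Its direct arrays gave -0.12 and 0.075, and the indirect path -0.26. Siglech and Itgam lay above 0, at 0.25 ± 0.27 and 0.21 ± 0.20. Each was read from the brighter of 2 probes, and the other probe is not given here. The probes used averaged 14.85 for Siglech and 14.23 for Itgam in the floxed controls, far above P2ry12 (9.01) and Tmem119 (9.65). The intervals of P2ry12 and Tmem119 still include differences as large as that of C1qb or C1qc, so equal levels were not shown.

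The strength of the list depended on the direct arrays and on the normalization. The median of the 26 markers was -0.10 on direct array 1, -0.57 on direct array 2 and -0.29 along the indirect path. Without direct array 2, 17 of 26 markers were below 0, 6 had an unadjusted p under 0.05, and the median was -0.15. Without direct array 1 the median was -0.41, with 9 lower at that threshold. With median centring in place of loess, 20 of 26 were below 0, 6 were lower at that threshold and the median was -0.14, and array weights gave a median of -0.18. With sex in the fit, 12 of 26 were lower and 1 higher at that threshold, and the median was -0.31.

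Start regions of 3 of the lower microglial genes and of 1 interferon-stimulated gene are shown here to let their sequence be read beside their levels. Each window runs from 250 bases before to 50 bases after the gene's start, 5′ to 3′ on the gene's own strand, from RefSeq on GRCm38.p6. The windows are those of Cx3cr1 (chr9:120068247-120068546, minus strand), C1qb (chr4:136886151-136886450, minus strand), C1qc (chr4:136892865-136893164, minus strand) and the interferon-induced gene Oas1a (chr5:120907476-120907775, minus strand), chosen after their values were seen. Capitals mark matches on either strand to GAGGAAGT (the PU.1 motif of the myeloid lineage), GAAANNGAA (the core of the interferon-stimulated response element, ISRE) or TTCNNNGAA (the STAT motif).
Cx3cr1: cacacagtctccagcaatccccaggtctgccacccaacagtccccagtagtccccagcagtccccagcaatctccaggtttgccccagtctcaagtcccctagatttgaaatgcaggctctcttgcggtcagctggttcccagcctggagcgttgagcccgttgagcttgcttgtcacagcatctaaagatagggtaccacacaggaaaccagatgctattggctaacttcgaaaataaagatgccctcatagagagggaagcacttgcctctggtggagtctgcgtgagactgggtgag
C1qb: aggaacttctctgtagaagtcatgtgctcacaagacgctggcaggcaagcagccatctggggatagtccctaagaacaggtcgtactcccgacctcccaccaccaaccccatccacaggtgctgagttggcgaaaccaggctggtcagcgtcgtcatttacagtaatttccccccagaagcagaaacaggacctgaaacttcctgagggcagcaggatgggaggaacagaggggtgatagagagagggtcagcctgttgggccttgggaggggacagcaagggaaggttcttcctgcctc
C1qc: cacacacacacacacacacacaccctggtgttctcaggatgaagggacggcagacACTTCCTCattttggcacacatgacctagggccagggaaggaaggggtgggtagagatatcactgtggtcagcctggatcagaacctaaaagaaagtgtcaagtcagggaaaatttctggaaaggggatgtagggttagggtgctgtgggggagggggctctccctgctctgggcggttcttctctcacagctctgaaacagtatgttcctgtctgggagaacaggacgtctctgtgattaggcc
Oas1a: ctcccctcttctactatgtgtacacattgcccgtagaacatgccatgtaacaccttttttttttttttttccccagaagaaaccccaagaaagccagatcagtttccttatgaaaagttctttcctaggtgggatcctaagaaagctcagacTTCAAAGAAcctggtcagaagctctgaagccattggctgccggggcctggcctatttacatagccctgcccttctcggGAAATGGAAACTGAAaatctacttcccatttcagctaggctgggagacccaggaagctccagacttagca
The windows of Cx3cr1 and C1qb hold none of these letters, the window of C1qc holds 1 PU.1 match, whose first base lies at -195, and the window of Oas1a holds 1 STAT match at -98 and 2 ISRE matches at -20 and -14 that overlap each other. Over all 32851 windows of 300 bases, 3.2% held the PU.1 letters, 8.56% the ISRE letters and 8.3% the STAT letters. A match describes the sequence only.

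Genes of activated phagocytes also lay mostly below 0 in the fit, with medians close to 0 on the direct arrays. Of 23 tested, 20 were below 0, and at an unadjusted p under 0.05 3 were lower and 1 higher, against 1.60% and 2.82% of all features. Cd68, a lysosomal protein of phagocytes, differed by -0.52 ± 0.16, Tlr2, a receptor for bacterial lipoproteins, by -0.38 ± 0.13, and Cd14, a co-receptor for endotoxin, by -0.55 ± 0.23, while Cd83 lay at 0.29 ± 0.098. The list's median was -0.22, with -0.043 and 0.075 on the direct arrays and -0.67 along the indirect path. Of 13 markers of border macrophages and monocytes 11 were below 0, and only Stab1 had an unadjusted p under 0.05, at -0.47 ± 0.20. The median of that list was -0.053. Mrc1 and Cd163, which define macrophages at the brain's borders, lay at 0.086 ± 0.16 and -0.032 ± 0.11. Outside the C1q genes, the complement list held 1 member past the unadjusted threshold, C1ra, an enzyme of the C1 complex, at 0.29 ± 0.087.

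Interferon-stimulated genes were all below 0 in the loop fit (22 of 24 with median centring in place of loess), and most of that lean came from the path through the cryolesioned mice. Of 24 tested genes 24 were below 0, the median was -0.31, and 3 (Oas1a, Ifitm3 and Ifi27) had an unadjusted p under 0.05, against 1.60% of all features. Without direct array 2 the median was -0.54 and 6 were lower at that threshold. The direct arrays gave 0.11 and -0.73 for Ifitm3, an antiviral membrane protein. In all 24 genes the levels of the genotypes overlapped. The median was -0.015 and -0.22 on the direct arrays and -0.88 along the indirect path. In the fit of the 8 control levels alone 17 of 24 were below 0, with a median of -0.072.

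Oas1a, a sensor of double-stranded RNA, read 7.92, 7.88, 8.19 and 8.29 in the floxed and 7.45, 7.51, 8.08 and 7.88 in the deficient controls. Deficient controls 1 and 2 lay below every floxed control, deficient control 3 lay within their range and deficient control 4 lay level with the lowest floxed animal, and the difference was -0.53 ± 0.11 (-0.47 and -0.37 on the direct arrays). Rsad2 and Irf7, an antiviral enzyme and the transcription factor that amplifies the interferon response, differed by -0.46 ± 0.21 and -0.48 ± 0.25. Their direct arrays gave -0.062 and -0.28 for Rsad2 and -0.28 and -0.11 for Irf7, against -1.31 and -1.35 along the indirect path.

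Ifi27l2a, an interferon-inducible gene of microglia and other cells that was not in that list, had the second smallest p of all genes. It read 8.44, 8.96, 9.84 and 9.15 in the floxed and 7.90, 7.49, 7.94 and 8.94 in the deficient controls. Deficient control 4 lay inside the floxed range, and the other deficient controls lay below all floxed animals. The difference was -0.99 ± 0.11 (unadjusted p 3.64e-05, adjusted limma p 0.534), with -0.54 and -1.47 on the direct arrays and -0.93 along the indirect path. The exact permutation p of the levels was 0.0571. A second Ifi27l2a probe was above background in 0 of 16 channels and gave no level.

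Antigen presentation genes showed the same division between the routes. All 16 tested members were below 0 in the fit (13 with median centring, with a median of -0.15) with a median of -0.23, and 2 of them, the immunoproteasome subunits Psmb8 (-0.31 ± 0.11) and Psmb9 (-0.31 ± 0.097), had an unadjusted p under 0.05, against 1.60% of all features. The direct arrays gave 0.033 and -0.59 for Psmb8. Without direct array 2 the list's median was -0.42 and 5 were lower. Without the array of floxed control 3 the median was -0.11, and without that of deficient control 4 it was -0.14. The direct medians were -0.071 and -0.045, and the indirect one -0.62. Cd74, the invariant chain of MHC class II, averaged 7.36 ± 0.54 in the floxed and 6.90 ± 0.051 in the deficient controls (SD, n = 4 each) without overlap, and its difference was -0.43 ± 0.27. By level 2 of the 16 members separated the genotypes downward and 1 upward, where 2.18% and 2.01% of features did.

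**Figure D3:**
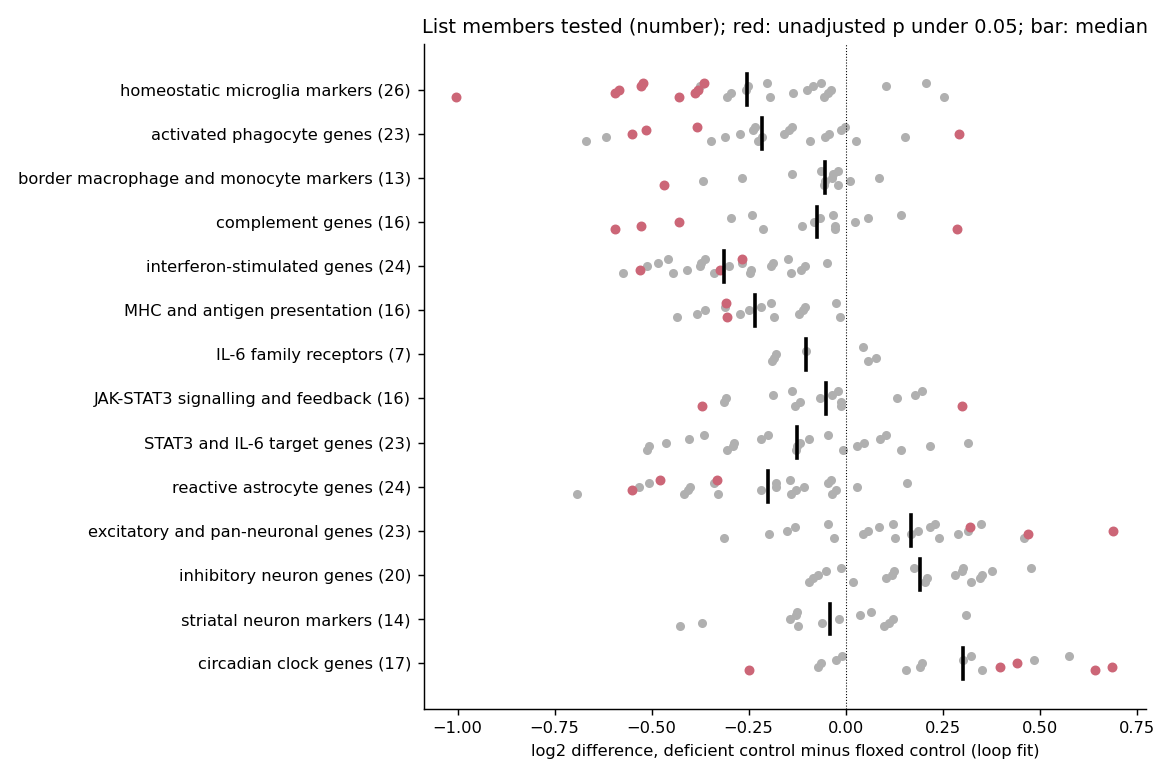
Fitted log2 difference (x axis) of each tested member of 14 gene lists (rows, with the number tested), in red where the unadjusted limma p was under 0.05; black bars are list medians. The microglia list holds 9 red members, all left of 0, while the interferon-stimulated and antigen presentation members all lie left of 0 with 3 and 2 red (22 of 24 and 13 of 16 left of 0 with median centring).

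The interleukin-6 pathway itself showed no difference past an unadjusted p under 0.05 in its ligands or receptors. Among 9 ligands of the family the median was -0.10 and 0 passed, and among 7 receptor genes it was -0.10 and 0 passed. Over all features 1.60% were lower and 2.82% higher at that threshold, so 0 is the likely count in lists this short. The direct medians were -0.0015 and -0.025 for the ligands and -0.030 and -0.00055 for the receptors. Along the indirect path the medians were -0.48 and -0.53. Il6ra read 9.02, 9.40, 9.68 and 9.34 in the floxed and 9.24, 9.40, 9.49 and 9.53 in the deficient controls, and its difference was -0.10 ± 0.23 (95% interval -0.63 to 0.43). Il6st, the shared subunit, read 9.20, 9.35, 9.53 and 9.29 in the floxed and 9.11, 9.30, 9.40 and 9.30 in the deficient controls, with -0.19 ± 0.15 (95% interval -0.53 to 0.16). The levels of both genes overlapped between the genotypes. The receptors of related cytokines, Osmr, Lifr and Cntfr, differed by -0.18 ± 0.18, 0.058 ± 0.19 and -0.19 ± 0.084.

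Of 16 genes of JAK-STAT3 signalling, 1 was lower and 1 higher at an unadjusted p under 0.05, against 1.60% and 2.82% of all features. Ptpn6 (SHP-1), a phosphatase of blood and microglial cells that damps JAK signalling, read 7.68, 7.70, 7.65 and 7.48 in the floxed and 7.44, 7.05, 7.27 and 7.44 in the deficient controls; every deficient control lay below every floxed control, and the difference was -0.37 ± 0.091. Pias1, an inhibitor of STAT binding to DNA, lay at 0.30 ± 0.11. Stat3 read 10.39, 10.49, 10.58 and 10.45 in the floxed and 10.26, 10.38, 10.51 and 10.59 in the deficient controls, with -0.31 ± 0.17. Socs3, the STAT3-induced inhibitor, read 8.29, 8.36, 8.82 and 9.16 in the floxed and 8.23, 8.41, 9.99 and 10.12 in the deficient controls. Its highest values were in the deficient controls 3 and 4, which were hybridised beside cryolesioned mice, and the fit gave -0.14 ± 0.22.

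Known targets of interleukin-6 and STAT3 also showed no member past the unadjusted threshold. Over all features 1.60% were lower and 2.82% higher at that threshold. Of 23 targets tested, 16 were below 0, with a median of -0.13. The direct medians were 0.023 and -0.0058, and the indirect one -0.51. Gfap, the intermediate filament of astrocytes, differed by -0.51 ± 0.22, with 0.35 and -0.90 on direct arrays 1 and 2. The metallothioneins Mt1 and Mt2, metal-binding proteins of astrocytes induced by the cytokine, differed by -0.29 ± 0.30 and -0.30 ± 0.37. Lcn2 and Timp1, an inhibitor of matrix proteases, lay at -0.13 ± 0.094 and -0.046 ± 0.22.

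**Figure D4:**
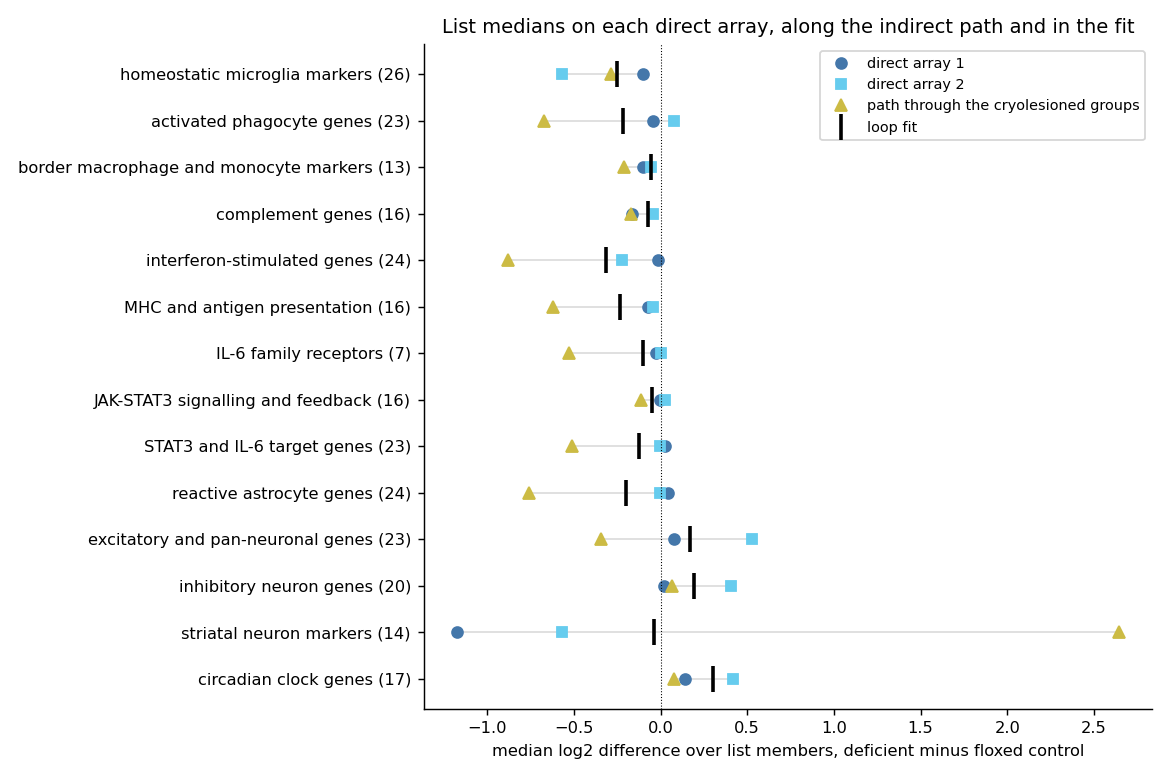
Median log2 difference (x axis) over the members of 14 gene lists (rows, with the number tested) on direct array 1, on direct array 2, along the indirect path through the cryolesioned groups, and in the loop fit. The 4 values lie together for border macrophage and complement genes, whereas the striatal markers reach -1.18 on direct array 1 and 2.65 along the indirect path.

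The 10 genes with the smallest p on the higher side included several with neuronal roles. Itpka, a kinase of dendritic spines, read 14.61, 13.97, 14.47 and 14.54 in the floxed and 14.96, 15.06, 15.10 and 14.55 in the deficient controls, and the difference was 0.72 ± 0.11; floxed control 2 was the lowest animal. Neurod6, a transcription factor of cortical excitatory neurons, read 9.64, 9.60, 10.01 and 9.96 in the floxed and 10.78, 10.13, 10.14 and 10.27 in the deficient controls without overlap, with 0.69 ± 0.13. Gabra5, a subunit of extrasynaptic GABA receptors, read 11.92, 11.40, 11.64 and 12.03 in the floxed and 12.49, 11.95, 12.08 and 12.02 in the deficient controls, with 0.57 ± 0.095. Vxn, a regulator of neural differentiation, lay at 0.48 ± 0.072, Htr7, a serotonin receptor, at 0.45 ± 0.076, and Urah, an enzyme of urate breakdown, at 0.98 ± 0.18.

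The remaining genes among the 10 smallest p on the higher side were Oxsm (0.69 ± 0.11), an enzyme of mitochondrial fatty acid synthesis, Zfp189 (0.62 ± 0.10), a zinc finger protein, Pkp2 (0.65 ± 0.11), a desmosomal protein, and Smc3 (0.39 ± 0.074), a subunit of cohesin. Of these 10 genes only Neurod6 separated the genotypes animal by animal, where 2.01% of all features did so upward. All 10 had an adjusted limma p of 0.983. The dimmer Htr7 probe gave 0.096, so the probes of Htr7 disagreed in size.

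As a group, excitatory and pan-neuronal genes leaned higher on the direct arrays and lower along the indirect path. Of 23 tested, 17 were above 0 with a median of 0.17, and Neurod6 and the deep-layer transcription factors Tbr1 (0.47 ± 0.15) and Fezf2 (0.32 ± 0.13) had an unadjusted p under 0.05, where 2.82% of all features were higher. For 5 of 23 every deficient control lay above every floxed control, where 2.01% of features did. Snap25, a protein of synaptic vesicle fusion, was among these 5 and read 14.79, 14.45, 14.94 and 14.82 in the floxed and 15.07, 15.32, 15.24 and 15.08 in the deficient controls, with 0.35 ± 0.19. Slc17a7, the glutamate transporter of cortical synaptic vesicles, went the other way in the fit at -0.15 ± 0.18. The list's median was 0.077 and 0.53 on the direct arrays and -0.34 indirectly, and without direct array 2 it was -0.16. Among 20 genes of inhibitory neurons 15 were above 0 and 0 passed the unadjusted threshold, with a median of 0.19 (0.017 and 0.40 on direct arrays 1 and 2). Gad1, which makes GABA, lay at 0.34 ± 0.23.

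Striatal neuron markers, included because the striatum lies beneath the dissected cortex, split the genotypes by level but not in the fit. Drd1, a dopamine receptor of striatal projection neurons, read 11.66, 10.91, 10.84 and 11.35 in the floxed and 10.39, 10.04, 10.05 and 10.79 in the deficient controls, so every deficient control lay below every floxed control. Drd2, the other main dopamine receptor of the striatum, read 7.09, 6.80, 6.87 and 6.99 in the floxed and 6.46, 6.43, 6.56 and 6.69 in the deficient controls, again without overlap. Of 14 markers, 9 separated the genotypes downward by level, where 2.18% of features did, and 13 were below 0 on both direct arrays. The loop fit nevertheless gave a median of -0.039 and 0 members with an unadjusted p under 0.05, since the indirect path ran the opposite way, with a median of 2.65 against -1.18 and -0.57 on the direct arrays. The SE of Drd1 was correspondingly wide (-0.13 ± 0.69). How much the depth of the dissection bears on the neuronal and other lists was not tested.

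Circadian clock genes leaned higher in the deficient controls. Of 17 tested, 12 were above 0, the median was 0.30, and 4 were higher (Per1, Per2, Cry2 and Ciart) and 1 lower (Npas2) at an unadjusted p under 0.05, against 2.82% and 1.60% of all features. Per1, a core repressor of the clock, read 12.38, 12.72, 12.58 and 12.62 in the floxed and 12.93, 13.85, 12.78 and 12.91 in the deficient controls. The groups did not overlap, but deficient control 2 lay far above the others, and the difference was 0.69 ± 0.16. Per2 read 9.28, 9.79, 10.51 and 10.31 in the floxed and 10.01, 10.74, 10.33 and 10.36 in the deficient controls, where floxed control 1 was lowest and the groups overlapped, with 0.64 ± 0.15. With the probes of a gene averaged, the list's median was 0.16. Without direct array 2, which held deficient control 2, it was 0.18 and 2 members were higher. Hlf, a clock-controlled transcription factor, averaged 11.71 ± 0.23 in the floxed and 12.16 ± 0.19 in the deficient controls (SD, n = 4 each) without overlap. The hour of dissection was not analysed here.

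Genes that follow neuronal activity and glucocorticoids lay on both sides of 0. Among 24 activity-regulated genes, Egr1 (0.73 ± 0.22), Nr4a1 (0.93 ± 0.31) and Dusp6 (0.43 ± 0.15) were higher and Npas4 (-0.53 ± 0.16) and Btg2 (-0.52 ± 0.14) lower at an unadjusted p under 0.05, against 2.82% and 1.60% of all features, while Fos lay at 0.26 ± 0.34 and Arc at -0.15 ± 0.17. The direct arrays opposed each other for Npas4 (-1.27 and 0.23) and Btg2 (-1.14 and 0.12), and they were unequal for Egr1 (0.18 and 1.67) and Nr4a1 (0.077 and 1.25). None of the 24 separated the genotypes by level, and the list's median was 0.0096 and 0.42 on direct arrays 1 and 2. Among 16 glucocorticoid-induced genes, Sgk1 (0.66 ± 0.22) and Tsc22d3 (0.32 ± 0.10) were higher and Sult1a1 (-0.40 ± 0.15) lower at that threshold, and Fkbp5 lay at -0.060 ± 0.34.

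Markers of other cell types were read against the 1.60% of all features that were lower and the 2.82% that were higher at an unadjusted p under 0.05. Of 24 reactive astrocyte genes 22 were below 0 with a median of -0.20, and 3 were lower at that threshold (B3gnt5, S100a10 and Cd14), but the direct medians were 0.043 and -0.0062. Of 20 homeostatic astrocyte genes 1 was lower, Acsbg1, an acyl-CoA synthetase, at -0.41 ± 0.12, while Aldh1l1 lay at -0.18 ± 0.082. The direct medians of that list were 0.0014 and -0.33. Of 24 endothelial and mural genes 22 were below 0 with a median of -0.13, and the direct medians were -0.057 and -0.21. In that list 2 were lower at that threshold, Cldn5, a tight junction protein, at -0.65 ± 0.15, and Pdgfrb, the growth factor receptor of pericytes, at -0.32 ± 0.12. Of 17 myelin and oligodendrocyte genes 0 passed, and Mbp, the myelin basic protein, lay at 0.034 ± 0.35. Of 14 oligodendrocyte precursor genes 1 was lower, C1ql1 at -0.36 ± 0.10 with overlapping levels, and the list's median was -0.054.

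Markers of blood and of neighbouring tissue were examined in the same way, against the same 1.60% of all features lower and 2.82% higher. Among 7 neutrophil, 9 lymphocyte and 7 erythroid genes 0 passed the unadjusted threshold. The medians of these lists were -0.13, -0.043 and -0.089. Among 13 choroid plexus and ependymal markers, only Folr1 passed, lower at -0.49 ± 0.18. Its levels overlapped between the genotypes, and the direct arrays gave -0.70 and -0.025. Ttr, the main secretory product of the choroid plexus, varied widely (-1.31 ± 0.94). Among 9 thalamic neuron markers only Zic1 passed, higher at 0.57 ± 0.13. The mean level of Zic1 was 9.52 ± 0.55 in the floxed and 9.54 ± 0.96 in the deficient controls (SD, n = 4 each), with overlap. Among 14 meningeal markers only Igfbp2, which binds insulin-like growth factors, passed. Igfbp2 read 10.25, 10.69, 10.58 and 9.99 in the floxed and 9.73, 9.89, 9.92 and 10.48 in the deficient controls, with a difference of -0.65 ± 0.11, and deficient control 4 lay among the floxed animals.

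The other genes with small p on the lower side came from several cell types. Tspo, a mitochondrial outer membrane protein used as a marker of glial activation, read 8.54, 8.64, 8.44 and 8.21 in the floxed and 8.34, 7.90, 7.96 and 8.13 in the deficient controls, and its difference was -0.47 ± 0.081. Ddah1, which breaks down inhibitors of nitric oxide synthase, differed by -0.48 ± 0.085, Pon3, a lactonase, by -0.42 ± 0.080, and Hspb8, a small heat shock protein, by -0.47 ± 0.093. These last 3 genes separated the genotypes by level, but a second Ddah1 probe of like brightness overlapped (exact permutation p 0.171), with a difference of -0.49 and direct arrays of -0.036 and -0.94. Angptl4, a secreted inhibitor of lipoprotein lipase, lay at -0.62 ± 0.12 with overlapping levels. Among 21 chemokines and their receptors, 3 were lower and 0 higher at an unadjusted p under 0.05, against 1.60% and 2.82% of all features. Beside Cx3cr1 these were Ccl6 (-0.88 ± 0.25) and Ccl9 (-0.90 ± 0.33), both with overlapping levels. The direct arrays gave -0.25 and -0.91 for Ccl6 and -0.0099 and -0.88 for Ccl9. Along the indirect path the values were -1.78 and -2.27. Cx3cl1, the neuronal ligand of Cx3cr1, lay at 0.39 ± 0.32. Among 21 cytokines and their receptors, 2 were lower and 0 higher at that threshold. These were Tgfb1 (-0.45 ± 0.16) and Tgfbr2 (-0.28 ± 0.10), both with overlapping levels. The median of the cytokine list was -0.15, with -0.015 and -0.092 on the direct arrays and -0.39 along the indirect path.

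The genotype difference of the named genes was set beside that after cryolesion, which comes from the same loop fit and shares arrays with it. For Cx3cr1 the difference was -1.003 ± 0.097 in the controls and -0.85 ± 0.097 after cryolesion, and the interaction had an unadjusted limma p of 0.381. The levels of Cx3cr1 after cryolesion were 12.19, 12.14, 12.19 and 12.48 in floxed and 11.52, 11.30, 11.31 and 11.66 in deficient mice, again without overlap. C1qb (-0.33 ± 0.093 after cryolesion) and C1qa (-0.18 ± 0.10) had smaller differences there, with interaction p-values of 0.123 and 0.0727. Itpka and Tspo kept their direction, at 0.47 ± 0.11 and -0.59 ± 0.081. Igfbp2 lay on the opposite side of 0 after cryolesion, at 0.46 ± 0.11 (interaction p 0.0005), as did Urah at -0.35 ± 0.18 (interaction p 0.00272) and Zfp189 at -0.32 ± 0.10 (interaction p 0.000968). Over all features the adjusted interaction p of each of these genes was 0.999982. They were picked for their difference in the controls, so a smaller difference after cryolesion is not independent of that choice.

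**Figure D5:**
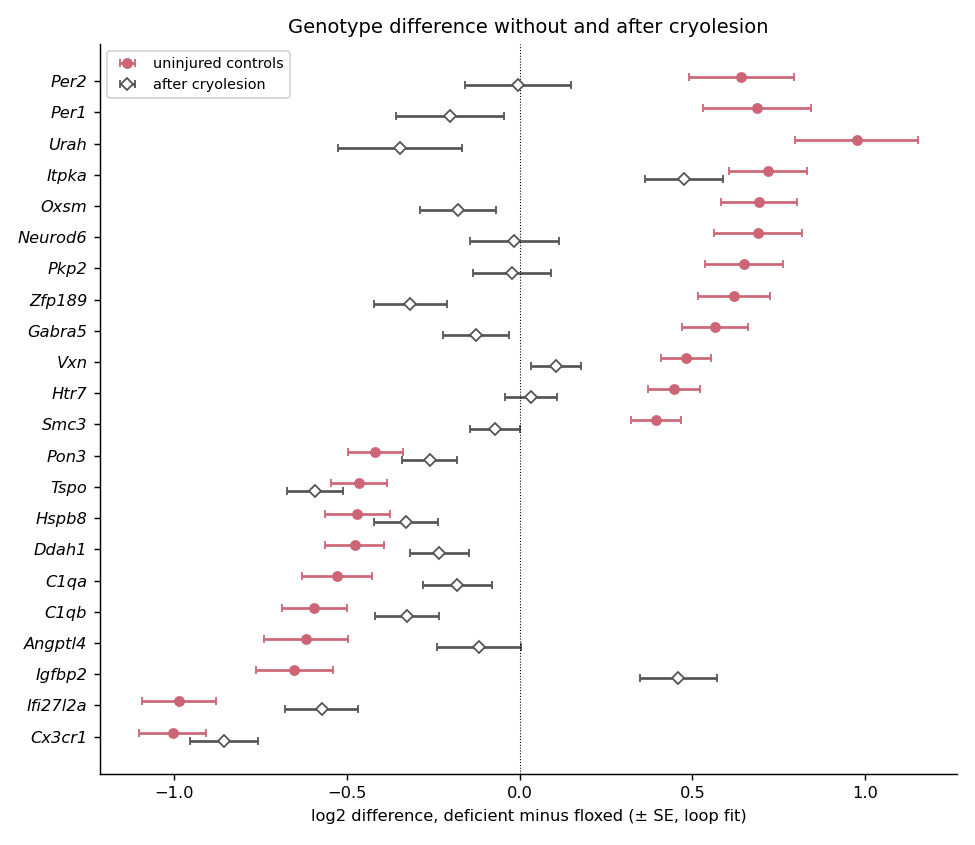
Genotype difference (x axis, log2, deficient minus floxed, ± SE of the loop fit) in uninjured controls and after cryolesion for the 20 genes with the smallest p in the controls, 10 in each direction, and for Per1 and Per2. Cx3cr1 lies at -1.003 and -0.85 and Tspo at -0.47 and -0.59, while most genes above 0 in the controls lie near or below 0 after cryolesion.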

How the data were processed

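Intensities of 8 Agilent 2-colour arrays, deposited by the authors as scanner files, were used; the submitters' processing notes name Agilent Feature Extraction 10.7.3.1. Median spot and background intensities carry no normalization. Processed intensities (background-subtracted and dye-normalized per the file headers) and the authors' deposited log2 value table served as alternatives, and the deposited log10 ratios set direction (Cy5 over Cy3). The table's columns correlated at 0.966 to 0.977 with the ratios used here and had medians of -0.018 to 0.016; its exact scaling is unknown.

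Background was corrected with normexp (offset 50) and ratios by loess in limma 3.58.1 (R 4.3.3), without control and outlier spots. Probes well above background in at least 4 of 16 channels were kept and named by RefSeq accession (GRCm38.p6; 32994 of 56605 matched). The brightest probe stood for each gene. The 29362 features were fitted with 3 group coefficients and a dye intercept (4 residual degrees of freedom, prior 2.95). Levels were normalized by loess and Aquantile and tested by two-sided exact permutation over 70 splits. Labels call the 4 animals of a group biological replicates. Slide and scan were shared by the 8 arrays (1 slide, 1 scan) and so could not be tested as batches.

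Named genes were those called, the 10 smallest p in each direction, Il6, Cx3cr1, sex-linked transcripts, and members of 30 lists that had an unadjusted p under 0.05 or define the list. Not all of the sex-linked and list-defining genes are given above. The members and lists were chosen with earlier results of these data known; the genes taken to define a list, Rsad2, Irf7, Cd74, Hlf and the printed start regions were chosen after their values were seen. Scripts were tested on simulated data. The closing section gives the alternatives.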

Additional observations from a re-analysis of the deposited data

Results flagged for a closer look

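For 36 named genes the genotype difference after cryolesion was compared with that in the controls, and 14 differed at an unadjusted limma p under 0.05 for the interaction. Most of these genes had been picked for a small p in the controls, which favours such differences, as do the negatively correlated errors of the loop fit. After adjustment over all features the limma interaction p was 0.999982 for each of these genes. The share of all features with an unadjusted interaction p under 0.05 was not counted, so the 14 of 36 cannot be set against it. Named genes outside the 36 were not part of this check, and some also had large values, such as -1.81 for Sgk1, -1.96 for Nr4a1 and 0.99 for Cldn5. The difference after cryolesion minus that in the controls was -0.38 for Vxn, -0.87 for Oxsm, -0.69 for Gabra5, -0.94 for Zfp189, -0.41 for Htr7 and -0.67 for Pkp2. It was -1.32 for Urah, -0.71 for Neurod6, -0.47 for Smc3, -0.89 for Per1 and -0.65 for Per2. Among genes lower in the deficient controls it was 0.41 for Ifi27l2a, 1.11 for Igfbp2 and 0.50 for Angptl4.

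Single animals stood apart in 3 of 72 groups of 4 levels checked, where chance alone would mark about 1 group in 20. These were floxed control 2 for Ddah1 at 10.57 and for Tyrobp at 11.40, and deficient control 2 for Per1 at 13.85. Both animals lay on direct array 2, and with that array left out the differences were -0.39 ± 0.10 for Ddah1, -0.16 ± 0.12 for Tyrobp and 0.47 ± 0.17 for Per1.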

How the results depend on the processing

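The loop fit called 0 genes, and leaving out each array in turn gave 0 to 3; the 3, without direct array 2, included Eif2s3y (2.998 ± 0.14) and Xist (-1.49 ± 0.099). The separate-channel fit called 1, Cx3cr1, and every other alternative called 0. Those were another offset, no background subtraction, median centring, the scanner software's processed signals, the authors' value table, other filters, no dye intercept, control levels alone, sex as a covariate, chromosomes X and Y left out, probe means, an intensity trend and, chosen after seeing the data, array weights. At an unadjusted p under 0.05 the number ran from 845 to 3498 features. The fit of the 8 control levels with the replicate number as a block (replicate block) called 0, with a smallest adjusted p of 0.340. Under that block the Cx3cr1 level differed by -1.06 at an exact p of 0.125, the smallest 4 pairs can give. The deviations of same-numbered controls correlated at 0.20 and 0.19 for numbers 1 and 2, which shared an array, and at 0.0052 and -0.026 for numbers 3 and 4, which did not. Only numbers 1 and 2 correlated best with their own number, so the numbers were not taken to pair the animals, and the unblocked exact tests leave the shared arrays out of account. Leaving out arrays moved the Cx3cr1 level difference from -1.16 to -0.95 (the smallest p for 3 against 3 is 0.1), and the Il6 level difference from -0.049 to 0.018. The filter, the authors' value table, the dye intercept, the separate-channel and direct-only fits, the X and Y exclusion and the trend do not apply to those 2 single-gene tests and were not run for them. Of 126 named genes 79 kept their direction in every fit run, among them the 20 with the smallest p. Those 20 were picked by the main fit, and the alternatives reuse the same 8 arrays. Their direction was therefore likely to hold, and it is no independent evidence. The direct arrays alone give values with no test. Signal near background limits what the arrays show for Il6.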
